A study of Mus musculus with 12 samples.

Results

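The genes described here are 30 mouse genes of cholesterol synthesis and of its control by SREBP2, the sterol-sensing transcription factor. They were chosen by gene symbol from knowledge of the pathway, with earlier results of these data known. All 30 were found among the 51912 genes of the deposited count table and all 30 passed the filter on low counts, which kept 18098 genes. By role they divide into 9 genes of the mevalonate and isoprenoid steps, 11 genes of the squalene and sterol steps, 4 genes of sterol sensing and 6 genes of cholesterol transport, storage and receptor turnover. They were measured in livers of 12 mice by sequencing the 3' ends of polyadenylated RNA, with 1 library per animal and 3 animals in each of 4 groups. The groups were Mlkl-/- mice fed a high-fat diet (HFD), Mlkl-/- mice fed normal chow (ND), wild-type mice fed HFD and wild-type mice fed ND. The HFD held 36% fat and gave 59% of its energy as lipid. Feeding began at 8 to 9 weeks of age, and the sample labels give 25 weeks of diet where the series text gives 16 to 25 weeks. Mlkl-/- mice lack MLKL, the pseudokinase that breaks the plasma membrane in necroptosis. The labels do not say which cells carry the deletion or whether controls were littermates, and animals were picked for organ weights near the mean.

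Cholesterol is built from acetyl-CoA through mevalonate, isoprenoid diphosphates, squalene and lanosterol, and the liver is a main site of this synthesis. When sterol in the endoplasmic reticulum is low, SCAP carries the SREBP2 precursor to the Golgi, where it is cut and its released part enters the nucleus and switches on nearly every enzyme gene of the route. When sterol is ample, INSIG proteins hold SCAP and SREBP2 back, so mRNAs of these enzymes are widely used as a readout of the pathway. Bound at a promoter, SREBP2 acts together with NF-Y, a factor that recognises the CCAAT box.

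Totals ran from 19435391 to 32120426 counts per library. Mlkl itself was at 0.763, 0.433 and 1.40 CPM (counts relative to library size, with sizes scaled by TMM) in Mlkl-/- HFD livers and 0.786, 0.664 and 0.790 CPM in Mlkl-/- ND livers, against 5.37, 7.65 and 4.24 CPM in wild-type HFD livers and 3.08, 3.73 and 3.01 CPM in wild-type ND livers, so each Mlkl-/- library was below each wild-type one. The libraries also fell into separate levels of 8 loci that are mostly annotated small RNAs. The 3 Mlkl-/- HFD libraries, Mlkl-/- ND replicate 1 and wild-type HFD replicates 2 and 3 held 3484 to 9239 summed raw CPM there, and the other 6 libraries, among them all 3 wild-type ND libraries, held 378 to 656. This level is called the 8-locus level below. A code that follows the diet in the sample titles also splits the libraries, with 23 or 25 on 6 of them and 27 or 29 on the other 6. The labels do not explain it. Codes 23 and 27 are on ND libraries only, and codes 25 and 29 are on HFD libraries only. Below, 23 and 25 are joined as the lower codes and 27 and 29 as the higher codes, so no single code holds both diets. Hepatocyte markers were abundant in all libraries, at 49882 to 88819 summed CPM over 6 genes, so the labelled tissue and its defining genes match. In whole liver, fewer cells of a type and less RNA per cell cannot be told apart.

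Promoter sequences are shown because 1 short motif recurs among these genes, called or not. A RefSeq window that reaches 250 bases before the start of transcription was matched for 24 of the 30 genes (build GRCm38.p6), and both strands were searched. CCAAT, the NF-Y box, was found in the windows of 21 of 24 genes, against 37.5% of 27025 genes with a window. CACNNCAC, a loose form of the sterol element that SREBP2 binds, was found in 7 of 24 genes and in 15.2% of all genes. Its stricter form CACCCCAC was in 2 of 24 genes, Acat2 and Hmgcs1, and in 2.98% of all genes, and the E-box CACGTG was in 5 of 24 genes and in 6.86% of all genes. A match is a run of letters and not a shown binding site. In the stretches below, each 5′ to 3′ on the gene's own strand, capitals mark CACNNCAC and CCAAT read on either strand, so that ATTGG is CCAAT on the other strand. Hmgcs1 lies at chr13:119690104-119690323 on the plus strand, Msmo1 at chr8:64733616-64733748 on the minus strand, Hsd17b7 at chr1:169969206-169969380 on the minus strand, Mvd at chr8:122443432-122443492 on the minus strand, Nsdhl at chrX:72918402-72918518 on the plus strand and Insig1 at chr5:28071186-28071411 on the plus strand.
Hmgcs1: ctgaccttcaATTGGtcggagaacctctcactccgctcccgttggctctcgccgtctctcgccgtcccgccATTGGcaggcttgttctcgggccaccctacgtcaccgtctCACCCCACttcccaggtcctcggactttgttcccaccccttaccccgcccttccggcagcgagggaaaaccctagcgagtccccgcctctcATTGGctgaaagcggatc
Msmo1: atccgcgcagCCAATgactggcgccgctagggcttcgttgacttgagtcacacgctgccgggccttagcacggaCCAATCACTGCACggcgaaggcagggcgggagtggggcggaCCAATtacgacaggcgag
Hsd17b7: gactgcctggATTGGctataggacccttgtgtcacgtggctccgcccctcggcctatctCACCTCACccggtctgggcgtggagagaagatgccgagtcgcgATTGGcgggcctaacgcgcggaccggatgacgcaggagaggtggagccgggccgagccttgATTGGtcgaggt
Mvd: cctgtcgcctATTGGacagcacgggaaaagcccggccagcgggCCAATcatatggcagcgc
Nsdhl: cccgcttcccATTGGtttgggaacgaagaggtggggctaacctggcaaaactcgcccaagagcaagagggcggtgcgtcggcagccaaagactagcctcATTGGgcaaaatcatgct
Insig1: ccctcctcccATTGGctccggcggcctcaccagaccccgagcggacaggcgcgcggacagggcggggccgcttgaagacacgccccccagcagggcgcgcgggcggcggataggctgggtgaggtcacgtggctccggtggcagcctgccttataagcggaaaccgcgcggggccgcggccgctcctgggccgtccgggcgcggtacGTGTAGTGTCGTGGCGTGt
Hmgcs1, Msmo1 and Hsd17b7 each held 3 CCAAT boxes and 1 CACNNCAC match in the 250 bases searched, which all lie before the start. For Hmgcs1 and Nsdhl the bases just after the RefSeq start were not found in a GENCODE transcript of the gene, so their starts are less certain. In Msmo1 the CACNNCAC match began 5 bases after the start of a CCAAT box, so that the runs joined. Mvd and Nsdhl held 2 CCAAT boxes each in the stretch shown and no CACNNCAC in the window. Insig1, which was not called in any comparison below, held 3 overlapping CACNNCAC matches on the minus strand just before the start and 1 CCAAT box. A window without a match says only that these letters are absent from it.

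The first comparison asks what the high-fat diet did to the pathway in wild-type livers. A gene was called at an adjusted p under 0.05 in edgeR's quasi-likelihood test, with Benjamini-Hochberg adjustment over all 18098 genes. On HFD 14 of the 30 genes were called higher than on ND and 0 were called lower. Over all genes tested, 4.23% were called in this comparison, 2.02% higher and 2.21% lower. The median log2 fold change was 0.79 over the 30 genes and -0.01 over all genes, and 27 of the 30 had a positive value. In 20 of the 30 genes every HFD liver stood above every ND liver, which 14% of all genes did, and in 0 of the 30 did every HFD liver stand below, which 15.2% of all genes did. The 14 called genes were all enzymes, with 5 of 9 in the mevalonate and isoprenoid steps (median 1.11), 9 of 11 in the squalene and sterol steps (median 1.00), 0 of 4 in sensing (median 0.27) and 0 of 6 in transport, storage and receptor turnover (median 0.40). At an unadjusted p under 0.05 these last blocks held 1 and 2 genes, where 20.5% of all genes passed, and whether the blocks differ was not tested.

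In the mevalonate block, Hmgcs1 encodes the cytosolic HMG-CoA synthase. Its level was 231, 604 and 302 CPM in wild-type HFD replicates 1 to 3, against 123, 82.4 and 117 CPM in wild-type ND replicates 1 to 3. Each HFD liver was above each ND liver, and replicate 2 stood far above the other HFD livers. The log2 fold change was 1.82 (SE 0.39, adjusted p = 0.0301), a 3.53-fold difference. Mvk, mevalonate kinase, was at 13.6, 19.1 and 18.1 CPM on HFD and 10.3, 6.38 and 6.94 CPM on ND, so the groups did not overlap. It rose by 1.11 (SE 0.23, adjusted p = 0.0189) on the log2 scale, in which all fold changes below are given. Pmvk, the kinase that follows it, was at 34.3, 50.3 and 45.2 CPM on HFD against 25.9, 18.2 and 22.3 CPM on ND, again without overlap, and rose by 0.97 (SE 0.21, adjusted p = 0.0201).

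Mvd encodes the decarboxylase that forms isopentenyl diphosphate, the isoprenoid building unit, and it had the largest log2 fold change of the 30 genes. Mvd was at 14.3, 34.8 and 24.6 CPM in wild-type HFD livers and 7.52, 6.24 and 4.62 CPM in wild-type ND livers. All HFD values were above all ND values, and HFD replicate 1 lay closest to chow. The log2 fold change was 2.01 (SE 0.41, adjusted p = 0.0256). Fdps, farnesyl diphosphate synthase, makes the last isoprenoid shared by sterols and prenylated proteins. Its level was 173, 307 and 267 CPM on HFD against 83.5, 75.4 and 70.9 CPM on ND. The 3 ND livers were nearly alike and every HFD liver was over them, with 1.70 (SE 0.25, adjusted p = 0.00538). The annotated gene Gm43738 shares 1124 exon bases with Fdps on the same strand and ran beside it, with a log2 fold change of 1.70 (SE 0.25, adjusted p = 0.00538), so reads of this pair may have been split or shared in counting and the single values are uncertain.

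The remaining mevalonate genes were not called. Aacs, which makes acetoacetyl-CoA from the ketone body acetoacetate, was at 93.6, 149.7 and 146 CPM on HFD and 61.7, 47.3 and 23.7 CPM on ND. Its groups did not overlap, but its ND livers spread widely and the log2 fold change of 1.55 had an adjusted p of 0.0593. Idi1, the isopentenyl diphosphate isomerase, averaged 180.3 ± 67.4 CPM on HFD and 90.2 ± 19.6 CPM on ND (SD, n = 3 each), and HFD replicate 1 lay among the ND livers. Its log2 fold change was 1.00 (SE 0.27, adjusted p = 0.0566). Acat2, the cytosolic thiolase that opens the route, had a log2 fold change of 0.34 with an adjusted p of 0.251. Ggps1, which diverts isoprenoids to geranylgeranyl diphosphate for protein prenylation, had the lowest value of the 30 at -0.41, with an adjusted p of 0.34.

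Beyond farnesyl diphosphate the route is devoted to sterols. Fdft1, squalene synthase, was at 76.7, 129 and 107 CPM in wild-type HFD livers against 49.5, 45.2 and 52.4 CPM in wild-type ND livers. The groups did not overlap and the log2 fold change was 1.09 (SE 0.23, adjusted p = 0.0201). Fdft1 shares 774 exon bases with Ctsb on the opposite strand, and Ctsb had 0.12 (SE 0.14, adjusted p = 0.685). Sqle, squalene epoxidase, an oxygen-dependent and rate-controlling step, was at 32.1, 108 and 76.0 CPM on HFD and 18.2, 15.6 and 24.9 CPM on ND. The groups did not overlap, but HFD replicate 1 lay close to the ND livers, whereas replicate 2 was the highest of all 12 livers. The log2 fold change was 1.88 (SE 0.44, adjusted p = 0.0428).

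Lss, lanosterol synthase, closes the sterol rings. It was at 40.1, 84.3 and 57.2 CPM on HFD and between 28.7 and 32.1 CPM in the 3 ND livers, without overlap, and rose by 1.00 (SE 0.23, adjusted p = 0.0273). Cyp51, the lanosterol demethylase, was at 92.2, 169 and 159.8 CPM on HFD and 72.8, 60.8 and 87.5 CPM on ND. The groups were apart by a narrow gap at HFD replicate 1, and the log2 fold change was 0.93 (SE 0.24, adjusted p = 0.0417). Msmo1, Nsdhl and Hsd17b7 encode the enzymes that remove methyl groups from the sterol ring. Msmo1 was at 97.8, 175 and 172 CPM on HFD against 71.2, 65.8 and 74.7 CPM on ND, with 1.07 (SE 0.25, adjusted p = 0.0301). Nsdhl was at 35.2, 73.4 and 58.0 CPM on HFD against 26.9, 23.1 and 21.0 CPM on ND, with 1.23 (SE 0.24, adjusted p = 0.0173). Hsd17b7 was at 58.7, 105 and 94.6 CPM on HFD against 49.7, 46.5 and 48.3 CPM on ND, with 0.84 (SE 0.19, adjusted p = 0.0265). In all 3 the ND livers lay close together, HFD replicate 1 was the lowest HFD liver and the groups did not overlap.

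At the end of the route, Sc5d, a sterol desaturase, was at 509, 791 and 606 CPM on HFD against 384, 330.2 and 445 CPM on ND and rose by 0.72 (SE 0.18, adjusted p = 0.0399). Dhcr7 encodes the reductase that yields cholesterol itself. Dhcr7 was at 73.5, 104 and 73.2 CPM on HFD against 43.9, 39.8 and 31.1 CPM on ND. Here HFD replicate 1 was level with replicate 3, and every HFD liver was well above every ND liver. The log2 fold change was 1.13 (SE 0.21, adjusted p = 0.0129). Of the 11 genes of this block, Tm7sf2, a sterol reductase, and Ebp, a sterol isomerase, were the 2 that were not called. Tm7sf2 averaged 94.2 ± 12.8 CPM on HFD and 75.5 ± 3.96 CPM on ND, and Ebp 132 ± 20.3 CPM on HFD and 149 ± 10.7 CPM on ND (SD, n = 3 each). Their log2 fold changes were 0.32 (SE 0.17, adjusted p = 0.295) and -0.18 (SE 0.16, adjusted p = 0.583).

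**Figure D1:**
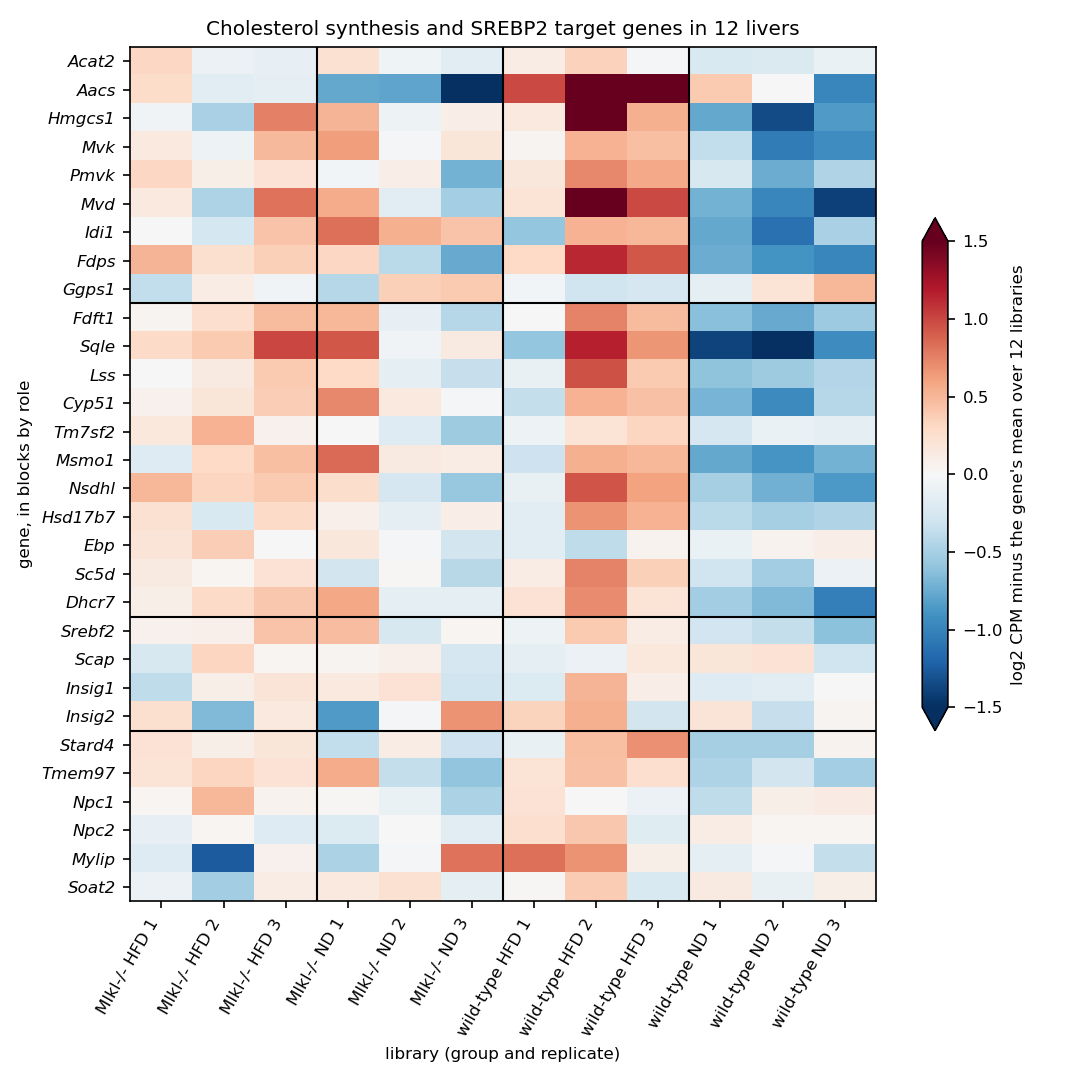
Level of each of the 30 genes (rows, in blocks by role) in each of the 12 libraries (columns, by group and replicate), as log2 CPM minus the gene's mean over the 12 libraries. The wild-type ND columns are mostly blue in the upper 2 blocks and wild-type HFD replicates 2 and 3 are mostly red, whereas wild-type HFD replicate 1 and the Mlkl-/- columns lie between.

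The genes that sense sterol were not called. Srebf2, which encodes SREBP2 and is a target of its own product, was at 39.4, 54.6 and 44.7 CPM in wild-type HFD livers and 34.1, 32.4 and 27.2 CPM in wild-type ND livers. The groups did not overlap, and the log2 fold change of 0.57 (SE 0.19) had an adjusted p of 0.0966. Scap, the escort protein, was at 78.9, 82.6 and 97.6 CPM on HFD and 99.5, 101 and 71.1 CPM on ND, with overlap and a log2 fold change of -0.07 (SE 0.17, adjusted p = 0.87). Insig1, itself a strong SREBP target in many cells, was at 226, 368 and 279 CPM on HFD and 227, 230.5 and 259 CPM on ND. HFD replicate 1 was just below all ND livers, and the log2 fold change was 0.29 (SE 0.20, adjusted p = 0.461). Insig2, the liver's other retention protein, was at 256, 293 and 167 CPM on HFD and 231, 159 and 209 CPM on ND, with overlap and 0.26 (SE 0.36, adjusted p = 0.754).

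Among genes that move, store or limit the uptake of cholesterol, 0 of 6 were called in wild-type livers. Stard4, a cytosolic sterol carrier, was at 113, 167 and 196 CPM on HFD and 86.6, 86.4 and 127 CPM on ND. ND replicate 3 lay inside the HFD range, and the log2 fold change was 0.67 (SE 0.20, adjusted p = 0.0798). Tmem97, an endoplasmic reticulum protein that binds NPC1, averaged 70.4 ± 6.27 CPM on HFD and 42.8 ± 3.69 CPM on ND (SD, n = 3 each). Its groups did not overlap, and its log2 fold change was 0.72 (SE 0.22, adjusted p = 0.0866). Mylip, the ubiquitin ligase that sends lipoprotein receptors for degradation, averaged 9.95 ± 2.50 CPM on HFD and 5.96 ± 0.677 CPM on ND, with a log2 fold change of 0.74 (SE 0.35, adjusted p = 0.246). Npc1 and Npc2, which export cholesterol from lysosomes, and Soat2, which esterifies it for storage and lipoproteins, had log2 fold changes of 0.09, 0.12 and 0.04.

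The strength of the wild-type result depended on single libraries. HFD replicate 2 was the highest of all 12 libraries in 16 of the 30 genes, and HFD replicate 1 was the lowest of its group in 21. Left out in turn, wild-type HFD replicate 2 left 1 gene called, HFD replicate 3 left 7, ND replicate 1 left 5, and ND replicates 2 and 3 left 1 each. Calls over all genes also fell from 366 higher and 400 lower. In the same order they were 45 and 18, 329 and 204, 119 and 79, 70 and 30, and 73 and 40. The medians over the 30 genes were 0.68, 0.79, 0.84, 0.83 and 0.87. Without wild-type HFD replicate 1, 16 of the 30 genes were called and their median was 0.95. Over all genes 207 were called higher and 152 lower in that fit. Fdps was called in 12 of 12 fits that left out 1 library. When the model also held the 8-locus level, 1 gene, Fdps, was called and the median over the 30 genes was 0.51. Over all genes 95 were called higher and 63 lower in that fit. With the title code level (lower or higher) as a term 8 were called, of which 7 were among the 14 and the other was Tmem97. Over all genes the title code fit called 320 higher and 368 lower. Within the lower 8-locus level, where 1 HFD liver meets 3 ND livers, the median log2 difference over the 30 genes was 0.39 and 25 were positive. The higher level holds no wild-type ND library. Within the lower title codes, with 1 HFD and 2 ND livers, the median was 0.46. Within the higher ones, with 2 HFD livers and 1 ND liver, it was 0.88. Each had 26 of 30 genes positive. HFD and ND livers share no single code, so these values do not compare diets within 1 code. With library size alone as the scale the median of all genes shifted by 0.19, the split over all genes was 921 higher and 181 lower instead of 366 and 400, and 19 of the 30 genes were called higher.

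Other cell type markers moved beside the enzymes. In wild-type livers the 6 hepatocyte markers summed to 49882 to 70186 CPM on HFD against 84347 to 88819 CPM on ND, with 6 of 6 below 0 and none called. Recruited macrophage markers summed to 89.2 to 224 CPM on HFD against 74.6 to 99.3 CPM on ND, with 3 of 8 (Ccr2, Cx3cr1 and Gpnmb) called higher, and Kupffer cell markers to 191 to 260 CPM against 126 to 162 CPM, with 0 of 6 called. Ccr2, Cx3cr1 and Gpnmb were low on ND, at means of 1.33, 0.470 and 0.252 CPM, so their fold changes rest on few reads. Adipocyte markers summed to 18.9 to 50.2 CPM on HFD against 11.2 to 16.9 CPM on ND, with 1 of 6, Lipe, called higher. Endothelial, stellate, cholangiocyte and lymphocyte markers had medians of 0.27, 0.53, -0.04 and -0.44, with 0 called. Only 1 marker of these lists was at 0 in all libraries of a group, the adipocyte marker Retn in the 3 Mlkl-/- ND livers. Over all genes 2.02% were called higher and 2.21% lower in this comparison. The part of these markers in the enzyme differences was not tested.

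In Mlkl-/- livers the same diet comparison gave 0 called genes among the 30 in edgeR's test, while 0.359% of all genes were called. At an unadjusted p under 0.05 there were 4 of the 30, namely Aacs, Fdps, Tm7sf2 and Nsdhl, a share no larger than the 13.6% of all genes that passed. DESeq2 and limma-voom called 0 of the 30, where over all genes DESeq2 called 310 higher and 204 lower and limma-voom 28 and 20. The median log2 fold change was 0.11, with 20 of 30 positive. In 5 genes every HFD liver was above every ND liver, which 8.02% of all genes did, and in 0 was every HFD liver below, which 7.49% of all genes did. The 2 enzyme blocks had medians of 0.03 (mevalonate and isoprenoid) and 0.23 (squalene and sterol).

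Hmgcs1 was at 201, 149.9 and 355 CPM in Mlkl-/- HFD replicates 1 to 3, against 298, 199 and 225 CPM in Mlkl-/- ND replicates 1 to 3. The groups overlapped over most of their range, with a log2 fold change of -0.03 (SE 0.38, adjusted p = 0.981). Mvk was at 14.7, 12.6 and 18.7 CPM on HFD and 20.5, 13.0 and 15.1 CPM on ND, with -0.08 (SE 0.22, adjusted p = 0.908). Pmvk was at 38.0, 32.5 and 35.6 CPM on HFD and 29.8, 32.6 and 18.6 CPM on ND, with 0.39 (SE 0.20, adjusted p = 0.42). In both kinases the groups overlapped. Mvd was at 13.6, 8.95 and 21.7 CPM on HFD and 18.2, 11.1 and 8.61 CPM on ND, with 0.23 (SE 0.40, adjusted p = 0.834). Idi1 averaged 163 ± 40.4 CPM on HFD and 234 ± 34.1 CPM on ND (SD, n = 3 each), with a negative log2 fold change of -0.52 (SE 0.27, adjusted p = 0.42). Fdps was at 199.5, 166 and 179 CPM on HFD and 173, 106 and 82.8 CPM on ND, with 0.59 (SE 0.25, adjusted p = 0.306). Only ND replicate 1 of Fdps reached the HFD range.

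Aacs had the largest value of the 30 in Mlkl-/- livers. It was at 56.7, 41.8 and 42.3 CPM on HFD and 27.5, 27.1 and 10.8 CPM on ND, without overlap, and its log2 fold change of 1.11 had an adjusted p of 0.269. Both Mlkl-/- groups lay low for this gene beside wild-type HFD livers. Acat2 and Ggps1 had log2 fold changes of 0.03 and -0.25.

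In the sterol block, Fdft1 was at 79.1, 91.0 and 106 CPM on HFD and 109, 70.2 and 56.9 CPM on ND, with 0.23 (SE 0.22, adjusted p = 0.684). Sqle was at 58.6, 63.0 and 96.5 CPM on HFD and 91.4, 46.3 and 52.7 CPM on ND, with 0.20 (SE 0.42, adjusted p = 0.871). Lss was at 43.6, 47.8 and 57.2 CPM on HFD and 53.4, 39.5 and 34.3 CPM on ND, with 0.23 (SE 0.23, adjusted p = 0.695). In these 3 genes ND replicate 1 stood in or above the HFD range and ND replicates 2 and 3 lay below. Cyp51 was at 123, 134 and 152 CPM on HFD and 195, 131 and 116 CPM on ND, with -0.11 (SE 0.23, adjusted p = 0.874). Msmo1 was at 106, 150.2 and 167 CPM on HFD and 219.8, 134 and 131 CPM on ND, with -0.20 (SE 0.25, adjusted p = 0.763). For both, ND replicate 1 was the highest of all 12 livers. Nsdhl was at 53.9, 47.5 and 50.0 CPM on HFD and 45.6, 32.1 and 25.7 CPM on ND, without overlap, with 0.55 (SE 0.24, adjusted p = 0.334). Hsd17b7 was at 77.1, 56.3 and 80.1 CPM on HFD and 69.5, 59.8 and 70.4 CPM on ND, with 0.10 (SE 0.19, adjusted p = 0.859). Sc5d was at 519, 484 and 548 CPM on HFD and 392, 479 and 355 CPM on ND, with 0.34 (SE 0.18, adjusted p = 0.432). Hsd17b7 overlapped and Sc5d did not. Dhcr7 was at 67.3, 77.1 and 83.6 CPM on HFD and 94.7, 57.3 and 57.7 CPM on ND, with 0.12 (SE 0.21, adjusted p = 0.834). Tm7sf2 averaged 101 ± 17.6 CPM on HFD and 72.2 ± 13.5 CPM on ND, and Ebp 169 ± 21.4 CPM on HFD and 144 ± 21.6 CPM on ND (SD, n = 3 each). The Tm7sf2 groups did not overlap, at 0.48 (SE 0.17, adjusted p = 0.214), and Ebp was at 0.23 (SE 0.16, adjusted p = 0.536).

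Srebf2 was at 43.4, 43.8 and 56.1 CPM in Mlkl-/- HFD livers and 57.1, 35.1 and 42.5 CPM in Mlkl-/- ND livers, with 0.09 (SE 0.18, adjusted p = 0.865). Scap was at 74.2, 109 and 89.1 CPM on HFD and 90.2, 92.2 and 73.6 CPM on ND, with 0.09 (SE 0.17, adjusted p = 0.853). Insig1 was at 199, 275 and 296 CPM on HFD and 288, 301 and 211 CPM on ND, with -0.06 (SE 0.20, adjusted p = 0.926). All of these groups overlapped. Insig2 was at 238, 128 and 225 CPM on HFD and 112, 201 and 322 CPM on ND, the widest spread of the 4 sensing genes, with -0.10 (SE 0.36, adjusted p = 0.926). Stard4 was at 142, 130.4 and 139 CPM on HFD and 94.6, 132 and 98.4 CPM on ND, with 0.34 (SE 0.20, adjusted p = 0.482). The other transport genes ran from -0.57 for Mylip to 0.38 for Npc1, with Tmem97 at 0.29, Soat2 at -0.23 and Npc2 at 0.03.

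**Figure D2:**
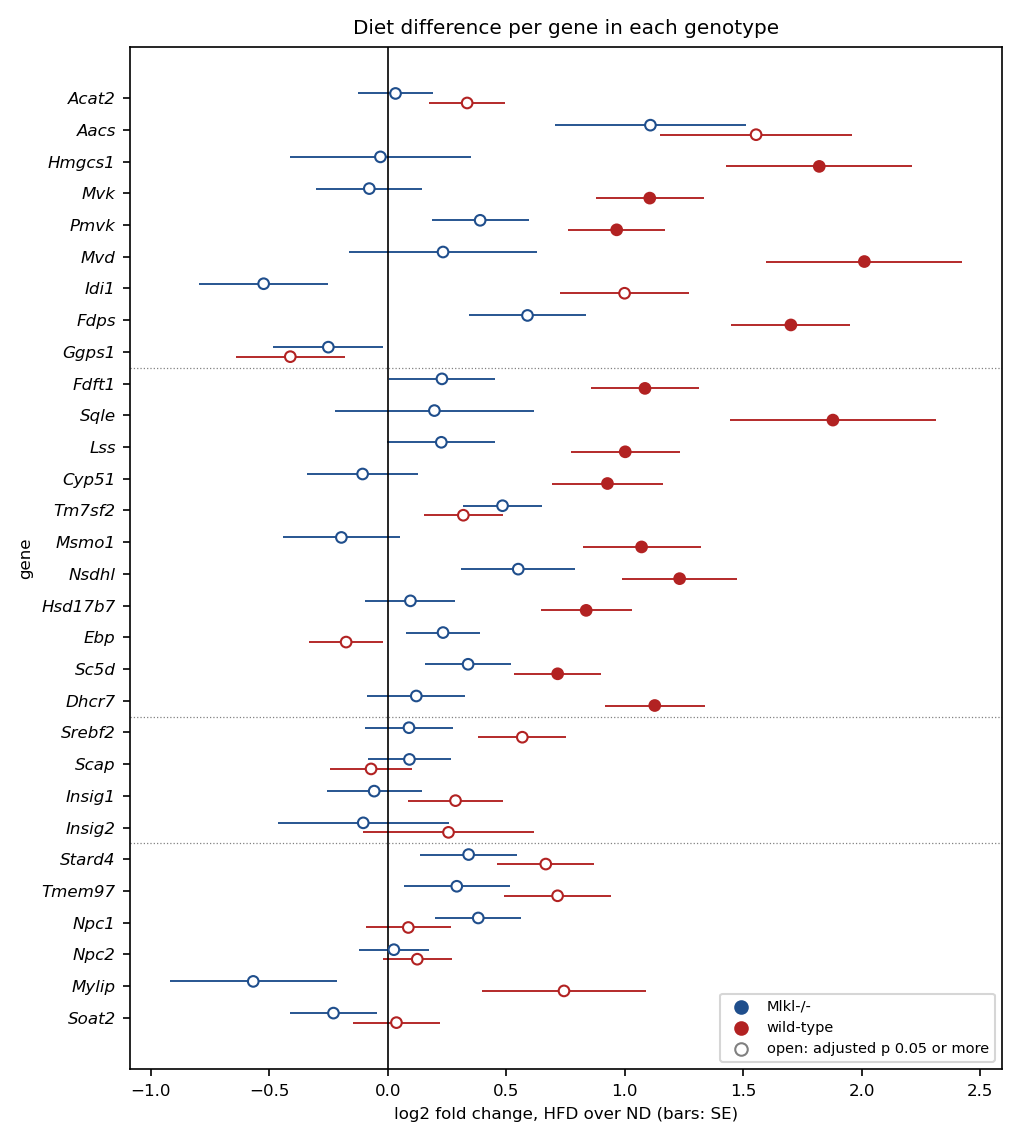
Log2 fold change of HFD over ND (x axis, with SE) for each of the 30 genes (y axis) in Mlkl-/- livers (blue) and wild-type livers (red), with filled points where the gene was called. The 14 filled points are all wild-type and lie at 0.72 to 2.01, and no Mlkl-/- point is filled.

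Mlkl-/- ND replicate 1, the only ND library at the higher 8-locus level, was the highest of its group in 19 of the 30 genes and the highest of all 12 libraries in 6. Without it 3 genes were called higher on HFD in Mlkl-/- livers, namely Fdps (0.97, adjusted p = 0.0278), Tm7sf2 (0.64, adjusted p = 0.0471) and Tmem97 (0.75, adjusted p = 0.0178), with a median of 0.30. Calls over all genes were also more numerous in that fit, at 427 higher and 302 lower of 18590 genes, against 38 and 27 of 18098 with all libraries. Within the higher 8-locus level, where 3 HFD livers meet this 1 ND liver, the median log2 difference was -0.06. No Mlkl-/- HFD library is at the lower level. Within the lower title codes, where 2 HFD livers meet this same ND replicate 1, the median was -0.17. Within the higher ones, where 1 HFD liver meets ND replicates 2 and 3, it was 0.38. The sign thus differed between levels that hold different ND livers, and no single code holds both diets. Recruited macrophage markers summed to 64.1 to 87.4 CPM in Mlkl-/- HFD livers against 106 to 141 CPM in Mlkl-/- ND livers, with 0 of 8 called, and hepatocyte markers to 65379 to 88409 CPM against 60191 to 87721 CPM, with 0 of 6 called. Adipocyte markers summed to 25.0 to 27.9 CPM on HFD against 7.38 to 12.6 CPM on ND, with 6 of 6 positive, a median log2 fold change of 2.59 and Lipe called higher. Except for Lipe, these adipocyte markers were near the floor on ND, at means of 0 to 0.451 CPM, so their fold changes rest on few reads. Kupffer cell markers summed to 81.1 to 178 CPM on HFD against 104 to 215 CPM on ND (median -0.56), and endothelial markers to 74.3 to 96.3 CPM on HFD against 89.2 to 151 CPM on ND (median -0.59), each with 6 of 6 negative and 0 called. Stellate, cholangiocyte and lymphocyte markers had medians of -0.30, -0.68 and 0.63 with 0 called, and Spp1 is in both the macrophage and the cholangiocyte list. The part of these markers was not tested.

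Whether the diet response differed between genotypes was tested as an interaction. The median of the 30 interaction values, Mlkl-/- minus wild-type, was -0.53, against 0.01 over all genes, and 25 of 30 were negative. In edgeR's test 0 of the 30 were called and 0% of all genes were, so a difference in response was not established for any of them. At an unadjusted p under 0.05 there were 13 of the 30 and 10.4% of all genes. The largest values were those of Hmgcs1, at -1.85 (SE 0.54, adjusted p = 0.392), Mvd, at -1.78 (SE 0.57, adjusted p = 0.407), Sqle, at -1.68 (SE 0.60, adjusted p = 0.42), and Idi1, at -1.52 (SE 0.39, adjusted p = 0.338). DESeq2 called 2 of the 30, Hmgcs1 (-1.86, adjusted p = 0.0411) and Idi1 (-1.53, adjusted p = 0.0366), and limma-voom called 0. Over all 18098 genes DESeq2 called 11 higher and 39 lower in the interaction, and limma-voom called 0. Mylip, at -1.31 (SE 0.49, adjusted p = 0.421), was the transport gene with an unadjusted p under 0.05. Cell type markers had interaction values too, with 0 called. The median was -1.74 for recruited macrophage (0 of 8 positive), -0.91 for Kupffer cell (0 of 6), -0.91 for endothelial (0 of 6), -1.02 for stellate (1 of 7) and -0.62 for cholangiocyte markers (1 of 5). It was 0.58 for hepatocyte (6 of 6 positive), 1.05 for lymphocyte (7 of 7) and 0.26 for adipocyte markers (4 of 6). Their part in the interaction values of the 30 genes was not tested.

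The genotype comparison on chow bears on how the Mlkl-/- and wild-type baselines stood. On ND 23 of the 30 genes were higher on average in Mlkl-/- than in wild-type livers, with a median log2 fold change of 0.38, against 0.00 over all genes. In edgeR's test 0 of the 30 were called, and 0.00553% of all genes were. At an unadjusted p under 0.05 there were 14 of the 30, of which 13 were higher in Mlkl-/- and Aacs was lower, against 5.51% of all genes. DESeq2 called 5 higher, and over all 18098 genes it called 22 higher and 22 lower. In 12 genes every Mlkl-/- ND liver was above every wild-type ND liver, which 4.93% of all genes did. Npc2 was the 1 gene with every Mlkl-/- ND liver below, which 5.56% of all genes were.

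The genes called by DESeq2 on ND were Sqle, Idi1, Msmo1, Mvk and Cyp51. Sqle was at 91.4, 46.3 and 52.7 CPM in Mlkl-/- ND livers against 18.2, 15.6 and 24.9 CPM in wild-type ND livers, with 1.69 (SE 0.43, adjusted p = 0.559) in edgeR and 1.70 (adjusted p = 0.00216) in DESeq2. Idi1 averaged 234 ± 34.1 CPM in Mlkl-/- ND livers and 90.2 ± 19.6 CPM in wild-type ND livers (SD, n = 3 each), with 1.38 (SE 0.28, adjusted p = 0.277) in edgeR and 1.38 (adjusted p = 0.000717) in DESeq2. In neither gene did the groups overlap. Msmo1 had 1.19 (SE 0.25, adjusted p = 0.287) in edgeR, and all Mlkl-/- ND livers were well above the narrow wild-type range. Mvk had 1.04 (SE 0.23, adjusted p = 0.298) and Cyp51 0.99 (SE 0.24, adjusted p = 0.428), both without overlap. Hmgcs1, Mvd, Dhcr7, Fdft1, Lss, Hsd17b7 and Srebf2 completed the 12 without overlap, with log2 fold changes of 1.16, 1.04, 0.87, 0.68, 0.49, 0.47 and 0.52. Aacs went the other way, with 27.5, 27.1 and 10.8 CPM in Mlkl-/- ND livers against 61.7, 47.3 and 23.7 CPM in wild-type ND livers and a log2 fold change of -1.02 (SE 0.40, adjusted p = 0.816).

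Within the lower 8-locus level, with 2 Mlkl-/- and 3 wild-type ND livers, the median genotype difference on ND was 0.28 and 23 of 30 were positive. The higher level holds no wild-type ND library. Within title codes the medians were 0.49 for the lower codes and 0.24 for the higher ones. Without Mlkl-/- ND replicate 1 the median was 0.27. Of the marker lists 0 genes were called on ND. Adipocyte markers summed to 7.38 to 12.6 CPM in Mlkl-/- ND livers against 11.2 to 16.9 CPM in wild-type ND livers, with 0 of 6 positive, 3 of 6 without overlap and a median log2 fold change of -2.05. Lipe made up most of these sums, at means of 8.77 CPM in Mlkl-/- ND and 10.1 CPM in wild-type ND livers. The other adipocyte markers were near the floor, at means of 0 to 0.451 CPM in Mlkl-/- ND livers, so their fold changes rest on few reads. Recruited macrophage markers summed to 106 to 141 CPM in Mlkl-/- ND livers against 74.6 to 99.3 CPM in wild-type ND livers, with 8 of 8 positive and a median of 0.37. Lymphocyte markers had 0 of 7 positive (median -0.74), and hepatocyte, Kupffer cell, endothelial, stellate and cholangiocyte markers had medians of -0.13, 0.18, -0.25, 0.06 and 0.01. The part of these markers was not tested.

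The genotypes were also compared on HFD. Of the 30 genes 7 had a higher mean in Mlkl-/- livers on the log2 scale, the median was -0.16 against 0.01 over all genes, and 0 were called by edgeR, where 0.0276% of all genes were called, 0.00553% higher and 0.0221% lower. At an unadjusted p under 0.05 there were 3 of the 30, namely Aacs, Ebp and Mylip, a smaller share than the 15.5% of all genes that passed. Aacs and Mylip were the 2 genes in which every Mlkl-/- HFD liver was below every wild-type HFD liver, which 10.8% of all genes were, and 0 of 30 were above, which 10.6% of all genes were. Aacs was at 56.7, 41.8 and 42.3 CPM in Mlkl-/- HFD livers against 93.6, 149.7 and 146 CPM in wild-type HFD livers. Its log2 fold change was -1.47 (SE 0.40, adjusted p = 0.164) in edgeR and -1.47 (adjusted p = 0.00548) in DESeq2. Over all genes DESeq2 called 100 higher and 295 lower on HFD. Mylip was at 5.87, 2.79 and 7.05 CPM in Mlkl-/- HFD livers against 11.9, 10.8 and 7.14 CPM in wild-type HFD livers, with -0.92 (SE 0.35, adjusted p = 0.24). Ebp averaged 169 ± 21.4 CPM in Mlkl-/- HFD livers and 132 ± 20.3 CPM in wild-type HFD livers, with 0.36 (SE 0.16, adjusted p = 0.295) and overlap. The median turned to 0.01 without wild-type HFD replicate 2. Within title codes it was 0.05 for the lower and -0.13 for the higher codes, and within the higher 8-locus level, with 3 Mlkl-/- and 2 wild-type livers, it was -0.33. No Mlkl-/- HFD library is at the lower level. Of the marker lists 0 genes were called on HFD. Hepatocyte markers summed to 65379 to 88409 CPM in Mlkl-/- HFD livers against 49882 to 70186 CPM in wild-type HFD livers, with 6 of 6 positive, 4 of 6 without overlap and a median log2 fold change of 0.39. Recruited macrophage markers had 0 of 8 positive (median -1.36, 4 without overlap), Kupffer cell markers 0 of 6 (median -0.88, 4 without overlap) and endothelial markers 0 of 6 (median -0.98, 5 without overlap). Stellate, cholangiocyte, adipocyte and lymphocyte markers had medians of -0.76, -0.61, -1.15 and 0.27. The part of these markers was not tested.

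**Figure D3:**
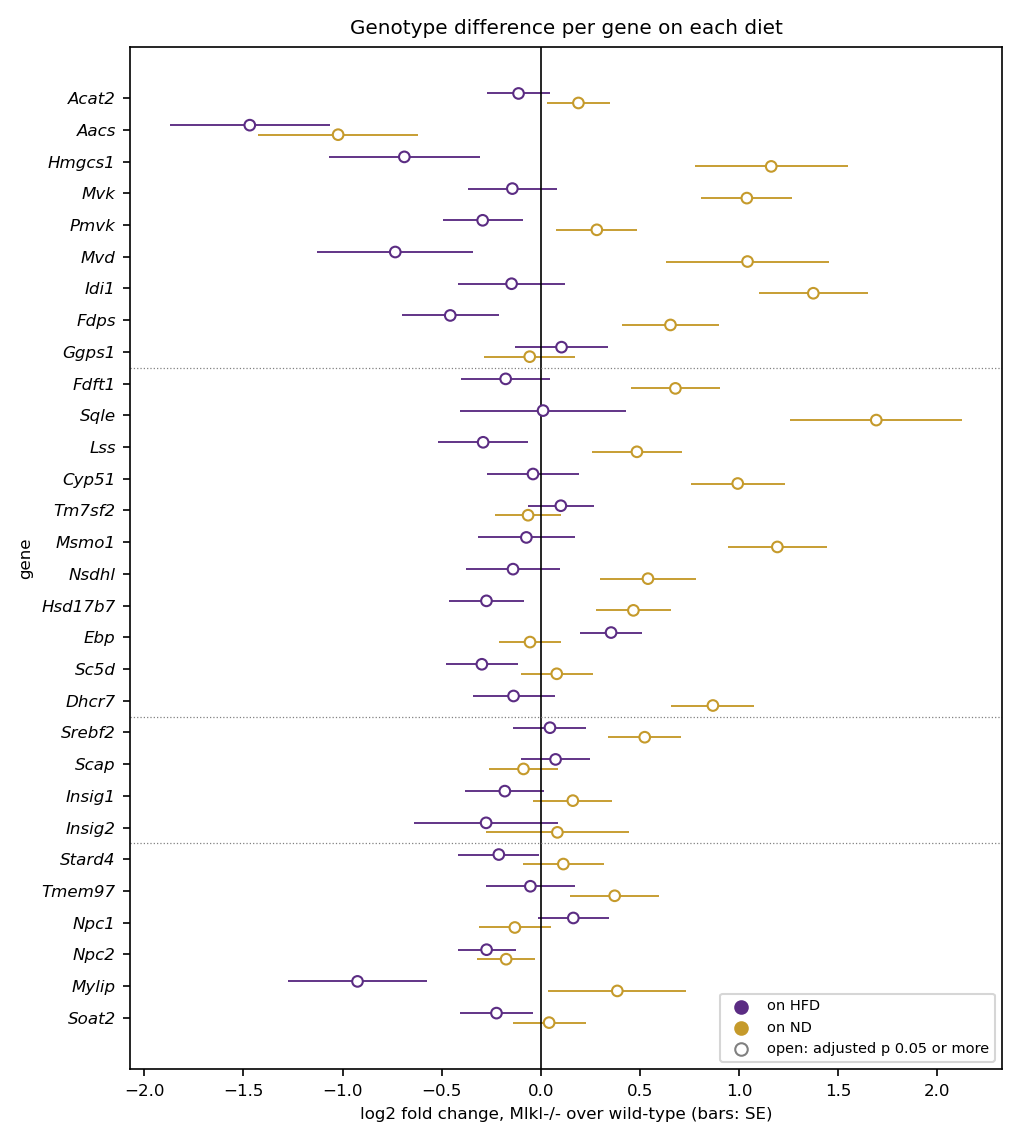
Log2 fold change of Mlkl-/- over wild-type (x axis, with SE) for each of the 30 genes (y axis) on HFD (purple) and on ND (gold), with open points because none was called. On ND the points of Sqle, Idi1, Msmo1 and Hmgcs1 lie at 1.16 to 1.69, and on HFD the points of Aacs and Mylip lie farthest to the left, at -1.47 and -0.92.

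Seen by group, the order of the means was alike in many of the genes. Wild-type HFD livers had the highest mean of the 4 groups in 19 of the 30 genes and wild-type ND livers the lowest in 20, while Mlkl-/- HFD and Mlkl-/- ND livers had the highest mean in 6 and 4. Fdps shows this order, with means of 182 ± 17.0 CPM in Mlkl-/- HFD, 121 ± 47.0 CPM in Mlkl-/- ND, 249 ± 69.1 CPM in wild-type HFD and 76.6 ± 6.39 CPM in wild-type ND livers (SD, n = 3 each). Sqle means were 72.7 ± 20.7 CPM in Mlkl-/- HFD, 63.5 ± 24.4 CPM in Mlkl-/- ND, 72.1 ± 38.1 CPM in wild-type HFD and 19.6 ± 4.84 CPM in wild-type ND livers, so 3 groups were within their spread of each other and wild-type ND was apart. Dhcr7 was similar, at 76.0 ± 8.21 CPM in Mlkl-/- HFD, 69.9 ± 21.5 CPM in Mlkl-/- ND, 83.5 ± 17.6 CPM in wild-type HFD and 38.3 ± 6.55 CPM in wild-type ND livers. Insig1 means were 257 ± 51.2 CPM in Mlkl-/- HFD, 267 ± 48.5 CPM in Mlkl-/- ND, 291 ± 71.8 CPM in wild-type HFD and 239 ± 17.4 CPM in wild-type ND livers. For Insig1 too, wild-type HFD was highest and wild-type ND lowest, but all 4 groups were within their spread of each other.

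**Figure D4:**
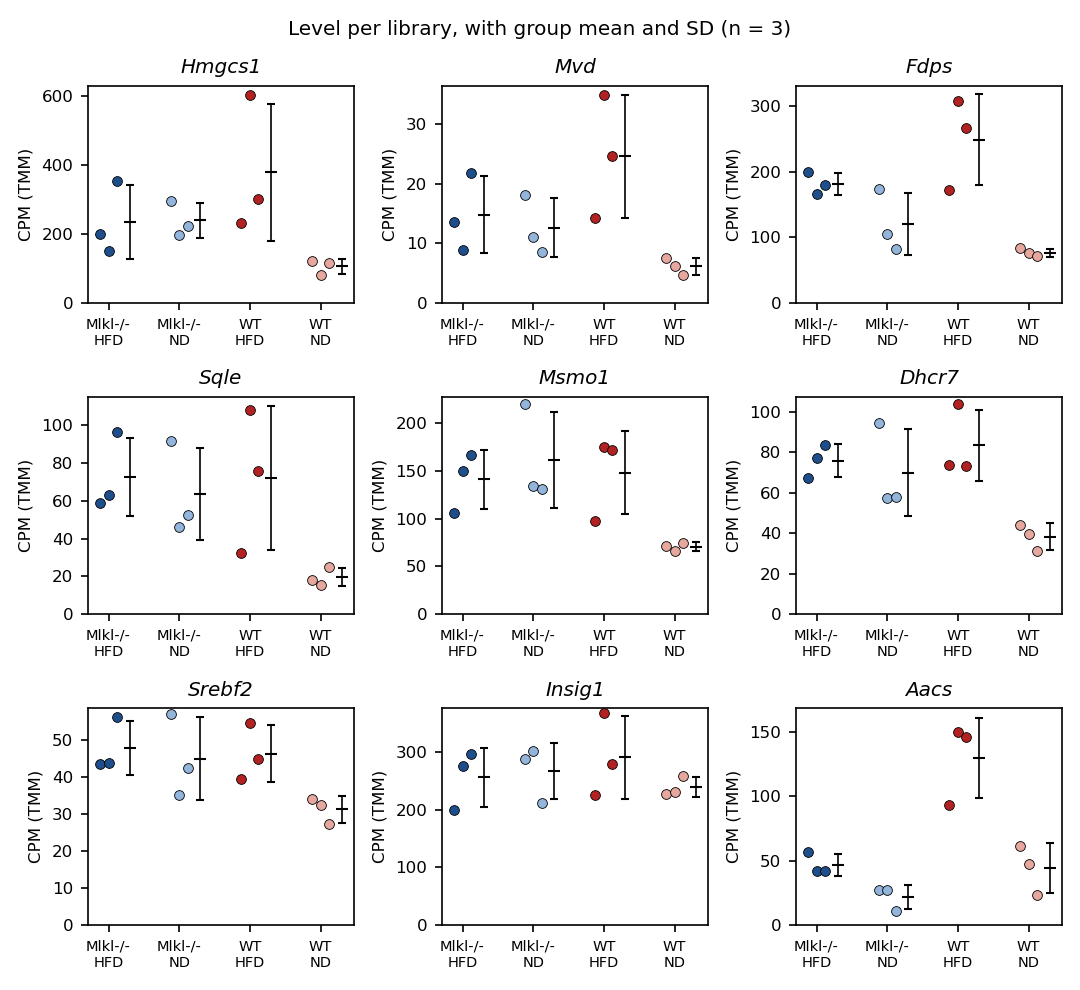
CPM of 9 genes (panels) in each library (points) by group, with the group mean and SD (n = 3) beside the points. In the panels of Hmgcs1, Mvd, Fdps, Sqle, Msmo1, Dhcr7 and Srebf2 the wild-type ND mean lies lowest, Insig1 shows no separation, and Aacs is highest in wild-type HFD livers.

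The library medians of each block, given as log2 deviation from each gene's mean over 12 libraries, varied between animals of 1 group. In the squalene and sterol block they were 0.13, 0.28 and 0.39 in Mlkl-/- HFD replicates 1 to 3, 0.29, -0.13 and -0.27 in Mlkl-/- ND replicates 1 to 3, -0.12, 0.71 and 0.44 in wild-type HFD replicates 1 to 3 and -0.53, -0.67 and -0.45 in wild-type ND replicates 1 to 3. In the mevalonate block they were 0.15, -0.09 and 0.36 in Mlkl-/- HFD, 0.31, -0.06 and -0.17 in Mlkl-/- ND, 0.14, 0.72 and 0.53 in wild-type HFD and -0.36, -0.89 and -0.84 in wild-type ND livers. In the sterol block the 6 libraries at the higher 8-locus level were the 6 with positive medians. The labels do not say what the 8-locus level reflects, and its part in these differences was not tested beyond the values above.

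**Figure D5:**
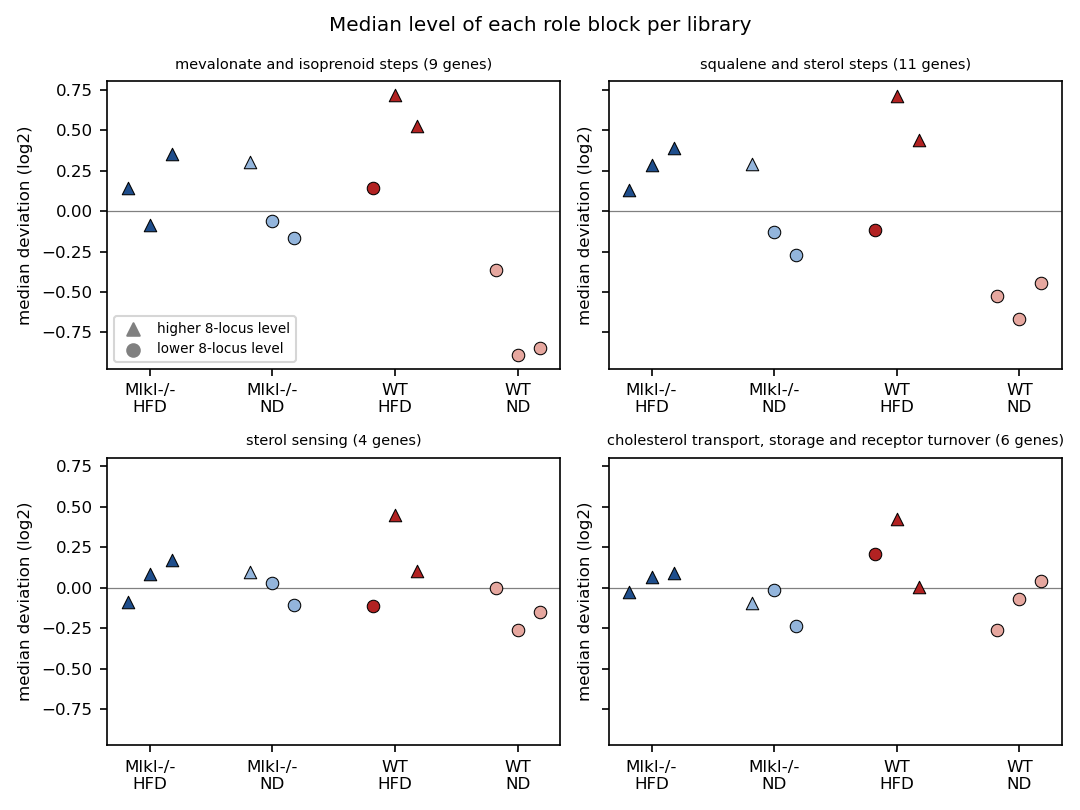
Median log2 deviation of the genes of each role block (panels) in each library (points), by group, with triangles for the higher and circles for the lower 8-locus level. In the 2 enzyme panels the wild-type ND circles lie lowest, at -0.36 to -0.89, and wild-type HFD replicates 2 and 3 highest, at 0.44 to 0.72, whereas the 2 lower panels span a narrower range.

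Averaged over both genotypes, 11 of the 30 genes were called higher on HFD and 0 lower, where 7.19% of all genes were called, 3.57% higher and 3.62% lower. The median log2 fold change was 0.45. The called genes were Aacs, at 1.33 (SE 0.29, adjusted p = 0.0222), Fdps, at 1.15 (SE 0.17, adjusted p = 0.00246), Mvd, at 1.12 (SE 0.29, adjusted p = 0.0391), Nsdhl, at 0.89 (SE 0.17, adjusted p = 0.00853), Pmvk, at 0.68 (SE 0.14, adjusted p = 0.0132), Fdft1, at 0.66 (SE 0.16, adjusted p = 0.0245), Dhcr7, at 0.62 (SE 0.15, adjusted p = 0.0213), and Lss, at 0.61 (SE 0.16, adjusted p = 0.0354). Sc5d, at 0.53, Stard4, at 0.50, and Hsd17b7, at 0.47, completed the list. Aacs and Stard4 were called here and in neither genotype alone. This average shares its libraries with the wild-type comparison and is no separate support for it. Fdps, Nsdhl and Pmvk were called in 12 of 12 fits that left out 1 library, whereas Mvd, Lss and Hsd17b7 were called in 3 of 12 each, and 0 of the 11 were called when the model held the 8-locus level. Over all genes the fit with the 8-locus level called 66 higher and 56 lower, against 646 and 656 without it.

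Neighbouring pathways were described from lists chosen with earlier results of these data known. Over all genes, diet gave 2.02% called higher and 2.21% lower in wild-type livers, and 20.5% had an unadjusted p under 0.05. Of 8 genes that process SREBP or degrade sterol-regulated proteins, 0 were called by diet in wild-type livers, with 1 at an unadjusted p under 0.05 and a median of -0.08. Erlin1, a part of the endoplasmic reticulum degradation machinery, had a log2 fold change of -0.32 (SE 0.19). Of 10 LXR targets and sterol efflux genes, 1 was called higher and 0 lower. It was Pltp, the phospholipid transfer protein, which averaged 93.2 ± 26.4 CPM in Mlkl-/- HFD and 16.5 ± 2.46 CPM in Mlkl-/- ND livers, and 140.2 ± 49.5 CPM in wild-type HFD and 32.5 ± 9.78 CPM in wild-type ND livers (SD, n = 3 each). Pltp rose by 2.50 (SE 0.29, adjusted p = 0.00536) in Mlkl-/- and by 2.11 (SE 0.29, adjusted p = 0.00538) in wild-type livers. Of 12 intracellular sterol transport genes 2 were called higher in wild-type livers, Nceh1, a cholesteryl ester hydrolase, at 1.24 (SE 0.24, adjusted p = 0.0146), and Lipa, the lysosomal acid lipase, at 0.83 (SE 0.16, adjusted p = 0.014).

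Fatty acid synthesis genes answer mainly to the related factor SREBP1c. In Mlkl-/- livers 1 of 14 was called higher on HFD, Fads1, a desaturase, at 1.25 (SE 0.17, adjusted p = 0.00654), with a median of 1.09 and 14 of 14 positive. In wild-type livers 6 of 14 were called higher, with a median of 1.16 and 14 of 14 positive. Over all genes, 0.21% were called higher on HFD in Mlkl-/- livers and 2.02% in wild-type livers. The 4 with the largest values in wild-type livers were Pnpla3, a lipid droplet hydrolase, at 2.88 (SE 0.63, adjusted p = 0.0236), Acacb, the mitochondrial acetyl-CoA carboxylase, at 2.34 (SE 0.38, adjusted p = 0.0129), the elongase Elovl5, at 1.54 (SE 0.28, adjusted p = 0.0124), and the desaturase Fads2, at 1.33 (SE 0.25, adjusted p = 0.0142). Pnpla3 was near the floor in wild-type ND livers, at a mean of 0.494 CPM, and spread from 1.40 to 7.74 CPM in wild-type HFD livers. On ND 1 of these 14 genes was higher on average in Mlkl-/- than in wild-type livers, with a median of -0.34 and 0 called (1 at an unadjusted p under 0.05), where the 30 cholesterol genes had a median of 0.38. The difference between these lists was not tested.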

How the data were processed

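Per the labels' protocols, liver RNA was extracted with Trizol, cleaned on RNeasy columns and made into QuantSeq 3' libraries for a NextSeq 500. Cutadapt 1.9, HISAT2, featureCounts, limma and build mm10 are named, per the submitters' processing notes. For counting, the strand setting and the treatment of overlapping genes were not given in the sources used here. Whole-number counts per gene, not normalized, were deposited for 51912 genes in 12 libraries of 19435391 to 32120426 counts, and 21194 genes had no count. No molecular identifiers are described, so precision from depth covers counting error only.

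Counts were fitted in edgeR 4.0.16 (R 4.3.3) with filterByExpr (minimum 10 counts, 15 in total), TMM factors, 1 mean per group over all 12 libraries, robust glmQLFit and glmQLFTest. P-values were adjusted over the 18098 genes kept. Levels are CPM on TMM library sizes, with a prior count of 2 for log2 CPM. Each SE belongs to a log2 fold change, and each SD covers 3 animals. Alternatives used DESeq2 1.42.0, limma-voom 3.58.1, other scalings, filters and terms, and leaving out each library, and the fit was tested on simulated data. Symbols and positions come from GENCODE M21 and promoters from RefSeq. The labels number animals separately, and libraries of 1 group differed beyond sampling noise (chi-square per degree of freedom 17.9 to 125). The genes and lists were chosen with earlier results of these data known. Named genes were all 30 members, with values per library for those called in any comparison and the 4 sensing genes, and of other lists up to 4 called in wild-type livers or, where fewer than 2 were, up to 2 with the highest mean CPM. Some genes of the pathway are not reported here.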

Additional observations from a re-analysis of the deposited data

How the results depend on the processing

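Among the 30 genes, the count called for HFD against ND in wild-type livers was 14. It was 18 with DESeq2, 15 with limma-voom, 16 with the filter of 5 CPM in 3 libraries and 12 with no filter beyond 1 count. It was 8 with the title code level as a term, 1 with an 8-locus term and 1 to 16 when 1 library was left out. The median was 0.79, 0.99 with library size only, 0.51 with an 8-locus term and 0.68 to 0.95 with 1 library left out. In Mlkl-/- livers 0 to 3 genes were called with 1 library left out, and the median of 0.11 was 0.20 with library size only, -0.083 with an 8-locus term and 0.055 to 0.30 with 1 library left out. For Mlkl-/- against wild-type on ND, 1 gene (Mvk) was called with no filter beyond 1 count and 5 with DESeq2, and the median of 0.38 was 0.24 with an 8-locus term. On HFD DESeq2 called 1 (Aacs), and the median of -0.16 was -0.33 with library size only, where the median of all genes was -0.16, and -0.28 with an 8-locus term, and ran from -0.32 to 0.014 with 1 library left out. For the difference in diet response DESeq2 called 2, and the median ran from -0.74 to -0.39 with 1 library left out. For the averaged diet effect 11 were called, 16 with DESeq2, 19 with library size only, 0 with an 8-locus term and 3 to 17 with 1 library left out. The median of 0.45 was 0.18 with an 8-locus term. The cause of these changes was not tested, and fits without 1 library have fewer samples. Median directions held in all settings except those named here.

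Over all genes tested, HFD against ND in wild-type livers gave 766 called genes, 1441 with DESeq2, 1431 with the compared groups only, 158 with an 8-locus term and 63 to 1233 with 1 library left out. In Mlkl-/- livers it gave 65, and 100 with library size only, 171 with no filter, 514 with DESeq2, 8 with the compared groups only, 27 with an 8-locus term and 13 to 729 with 1 library left out. Mlkl-/- against wild-type on ND gave 1, and 10 with no filter, 44 with DESeq2, 0 with limma-voom, 0 with the compared groups only, 2 with the title code, 3 with an 8-locus term and 0 to 6 with 1 library left out. On HFD it gave 5, and 36 with library size only, 124 with no filter, 2 with the filter of 5 CPM in 3 libraries, 395 with DESeq2, 3 without robust dispersions, 2 with the compared groups only, 3 with the title code, 8 with an 8-locus term and 0 to 189 with 1 library left out. The difference in diet response gave 0, and 1 with no filter, 50 with DESeq2, 2 with an 8-locus term and 0 to 4 with 1 library left out. The averaged effect gave 1302, and 1980 with library size only, 122 with an 8-locus term and 616 to 2029 with 1 library left out. Where 1 library was left out, the remaining 2 of its group were assumed to vary like the other groups.

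No paired analysis was possible because the replicate numbers were given in accession order and the labels pair no single animals across groups. The title codes, which several libraries of both genotypes share, were fitted as a term with 2 levels instead, as given above. Depth bears most on Mylip, whose lowest library held 58 counts, and each group has 3 animals.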

Other observations

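Genes that overlap the cholesterol genes near their 3' ends gave these values for HFD against ND in wild-type livers. Akap9, which shares 166 exon bases with Cyp51 on the opposite strand, had a log2 fold change of 0.04 (SE 0.17, adjusted p = 0.926). Rmc1, which shares 511 exon bases with Npc1 on the opposite strand, had -0.22 (SE 0.21, adjusted p = 0.616). Without the strand setting of the counting, reads of such pairs cannot be told apart.

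Other genes near the cholesterol route that were not called in wild-type livers included Abcg1, a sterol efflux transporter, at 0.74 (SE 0.36, adjusted p = 0.26), and Soat1, the broadly expressed cholesterol esterifying enzyme, at 0.52 (SE 0.30, adjusted p = 0.35). In the difference between genotypes on HFD, Mlkl-/- over wild-type, these were at -1.08 (SE 0.37, adjusted p = 0.206) and -1.10 (SE 0.31, adjusted p = 0.154), beside the marker values given for that comparison. These genes were chosen after their values were seen, and the part of the markers was not tested.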
